A study of Mus musculus with 9 samples.

Results

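Pentraxins and moderate acute phase genes of the liver were followed in 9 female mice of the MRL +/+ strain, which develops autoimmunity with age. The 9 genes were Apcs, Crp, Lrg1, Itih3, Itih4, Fgl1, Serpina3n, Serpina3m and Steap4, picked by their symbols from a list drawn up with the group differences of these same arrays known. Probe sets annotated to 8 of them were found among the 18193 genes with 1 symbol on the array, and 1, Serpina3m, has none in the annotation used here, so it is named without a value. Steap4 has 2 probe sets and the other 7 genes 1 each, and all 9 probe sets passed the filter on low signals. Mice received dichloroacetyl chloride (DCAC) or dichloroacetic anhydride (DCAA) at 0.2 mmol/kg in 100 µl of corn oil, or corn oil alone, by intraperitoneal injection 2 times a week for 6 weeks. Each group held 3 mice, killed at an age of 11 weeks and 24 h after the last dose, and 1 liver per mouse gave 1 array. The labels call the control mice untreated, while the design text gives them corn oil.

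The acute phase response is the shift in plasma protein output with which the liver meets inflammation, driven in hepatocytes mainly by interleukin 6 through STAT3, with interleukin 1 and C/EBP factors adding to it. Pentraxins are ring-shaped pattern recognition proteins that bind bacterial surfaces, nuclear debris and amyloid and engage complement. In mice serum amyloid P, encoded by Apcs, is the pentraxin that responds most to inflammation, whereas in humans that role belongs to C-reactive protein. The other genes encode secreted glycoproteins and protease inhibitors of the same response, apart from Steap4, which encodes a metalloreductase of membranes.

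The array labelled control 2 went against its label and is shown apart throughout. The summed signal of 15 hepatocyte markers was 62091 on it and 456403 to 624333 on the other 8 arrays, while that of 14 kidney tubule markers was 129183 on it and 2046 to 3328 on the others. Member genes were low there together with the hepatocyte markers: the summed signal of the 8 genes was 676 on control 2, against 128645 to 247505 on the other arrays. Apcs read 16.7 on control 2 and at least 18992 elsewhere, and Serpina3n read 21.1 against at least 10773. On control 2 the probe sets of Apcs, Lrg1, Serpina3n and Steap4 read below that array's floor of 59.8, its 25th percentile, so no fold is given for them. All values below therefore rest on 8 arrays, with control 1 and control 3 as the corn oil group, unless control 2 is named.

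**Figure D1:**
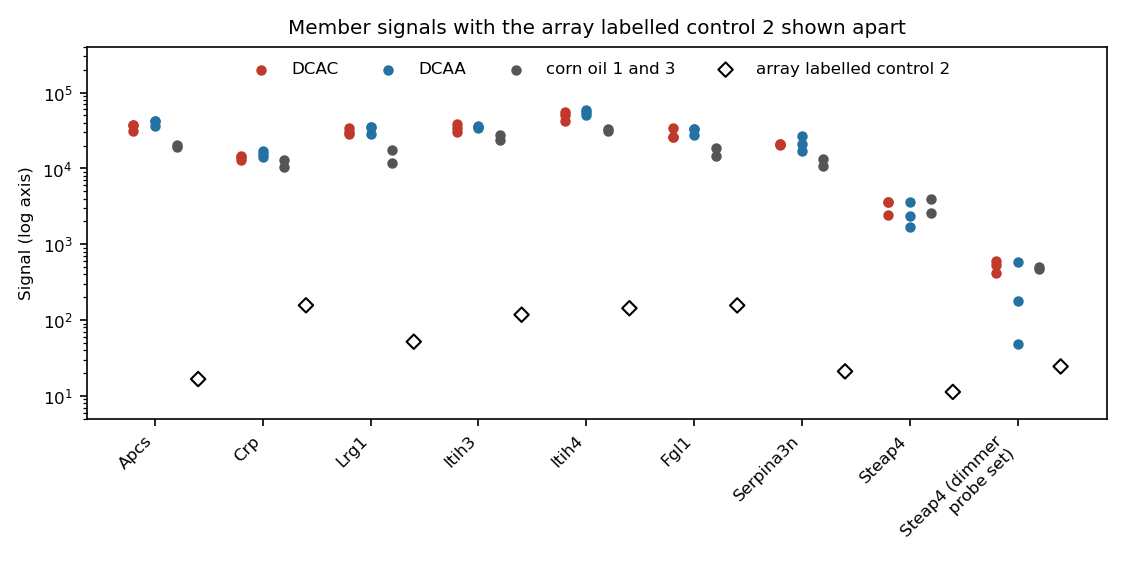
Signal on a log axis for the 9 member probe sets, with the 3 DCAC, 3 DCAA and 2 corn oil arrays as filled points and the array labelled control 2 as an open diamond. On control 2 every member probe set lies below the other 8 arrays, at signals from 11.3 to 157.

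Array quality differed with treatment. For pyruvate carboxylase, an array control transcript read at both ends, signal at the 3' end over that at the 5' end rises as RNA or labelled product gets shorter, and this 3'/5' ratio was 2.85 and 3.99 on DCAC 1 and 2, 12.8 on DCAC 3, 6.43 to 10.9 on the DCAA arrays, and 3.93 and 3.32 on control 1 and 3. All DCAA arrays thus had high ratios and both controls low ones, so the ratio and the DCAA group cannot be told apart in that comparison. The ratio for actin was 1.3 to 2 with DCAC, 1.76 to 2.59 with DCAA, and 1.41 and 1.36 on control 1 and 3. For GAPDH it was 0.785 to 1.15, 1.02 to 1.37, and 0.859 and 0.828. High or low ratio below refers to pyruvate carboxylase. Among these livers DCAA 3 had the lowest median rank correlation with the other arrays, 0.861 against 0.898 to 0.904. Its median signal was the highest, 214 against 157 to 186. Differences between arrays in a whole liver can come from RNA per cell or from the number of cells of a type, which cannot be told apart here.

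Signals are given as deposited, on a linear scale, and differences are in log2 units with their standard error (SE) from limma fitted over all 24531 probe sets kept. A signal depends on its probes, so levels are compared between arrays and not between genes. Since the list was drawn up with the differences from corn oil known, those differences are described, a count of members past a threshold included, and are not offered as tests. The difference between the compounds is tested.

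Promoter sequence was at hand for 7 member genes, all but Fgl1 and Serpina3m, and was read over the 250 bases before the annotated start from RefSeq (GRCm38.p6). It was searched on both strands for TTCNNNGAA, the palindrome that STAT factors bind, for TTGCNNAA, a C/EBP type motif, and for CTGGGA, the core of the interleukin 6 response element of acute phase genes. The STAT letters were found in 3 of the 7 (Apcs, Itih4 and Steap4), where 7.02% of all 32851 promoters of that length hold them. CTGGGA was found in 5 of the 7 (Apcs, Crp, Lrg1, Itih4 and Steap4), where 27% of all do, and the C/EBP letters in Steap4 alone, where 9.56% do. No match overlapped one of another motif. The promoters of 4 genes are shown, those with the STAT letters and that of Lrg1, the gene with the largest difference, 5′ to 3′ with matches in capitals. Apcs is read from chr1:172895055-172895304 on the minus strand, Lrg1 from chr17:56121947-56122196 on the minus strand, Itih4 from chr14:30886226-30886475 on the plus strand and Steap4 from chr5:7960222-7960471 on the plus strand.
Apcs: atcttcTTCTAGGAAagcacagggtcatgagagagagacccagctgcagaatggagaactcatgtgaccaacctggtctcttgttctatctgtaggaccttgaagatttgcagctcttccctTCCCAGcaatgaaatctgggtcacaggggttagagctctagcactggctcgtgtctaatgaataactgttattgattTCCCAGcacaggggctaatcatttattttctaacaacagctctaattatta
Lrg1: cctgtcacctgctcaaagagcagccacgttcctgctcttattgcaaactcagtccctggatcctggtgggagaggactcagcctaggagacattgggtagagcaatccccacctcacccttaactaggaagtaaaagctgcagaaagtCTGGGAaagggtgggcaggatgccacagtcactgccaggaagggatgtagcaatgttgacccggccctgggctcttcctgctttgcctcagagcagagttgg
Itih4: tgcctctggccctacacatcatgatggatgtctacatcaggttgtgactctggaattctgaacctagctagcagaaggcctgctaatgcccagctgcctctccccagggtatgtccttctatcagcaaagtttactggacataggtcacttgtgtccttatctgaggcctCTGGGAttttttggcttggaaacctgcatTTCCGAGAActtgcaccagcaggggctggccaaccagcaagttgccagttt
Steap4: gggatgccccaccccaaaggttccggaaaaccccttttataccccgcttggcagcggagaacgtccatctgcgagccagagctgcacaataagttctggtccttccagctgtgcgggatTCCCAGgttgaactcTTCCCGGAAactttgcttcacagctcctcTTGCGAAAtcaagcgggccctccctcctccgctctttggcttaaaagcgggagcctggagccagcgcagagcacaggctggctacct

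In Apcs the STAT letters begin 244 bases before the start and CTGGGA, read on the other strand, 128 and 51 bases before it. In Itih4 the STAT letters begin 51 and CTGGGA 80 bases before the start. Lrg1 holds CTGGGA 102 bases before the start and no STAT letters. Steap4 holds all 3 motifs, with CTGGGA at 131, the STAT letters at 116 and the C/EBP letters at 87 bases before the start. A match is a run of letters and not a shown binding site, and the absence of one in Itih3 and Serpina3n covers only the window searched.

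Among the pentraxins, Apcs stood clearly apart from corn oil and Crp less so. Apcs read 31210, 36955 and 37729 on the DCAC arrays, 36313, 41769 and 41644 on the DCAA arrays, and 18992 and 20456 on control 1 and 3. Every treated liver lay above both controls, and the lowest treated liver was DCAC 1. Group means were 35298 ± 3561 with DCAC, 39909 ± 3115 with DCAA (SD, n = 3 each) and 19724 ± 1035 with corn oil (SD, n = 2). The difference from corn oil was 0.84 (SE 0.15) with DCAC, or 1.78-fold, and 1.01 (SE 0.15) with DCAA, or 2.02-fold.

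Crp, which encodes C-reactive protein, read 12974, 14748 and 14312 with DCAC, 16840, 15586 and 14363 with DCAA, and 12801 and 10524 on the controls. Treated livers did not overlap the controls, but DCAC 1 exceeded control 1 by only a small margin and the controls lay further apart from each other than that. Its difference was 0.27 (SE 0.15, 95% interval -0.05 to 0.59) with DCAC and 0.42 (SE 0.15, interval 0.11 to 0.74) with DCAA. Without control 3 these were 0.13 and 0.28, without control 1 they were 0.41 and 0.56, and with quantile normalization they were 0.13 and 0.33. Apcs and Crp are neighbours on mouse chromosome 1, with no other protein coding gene annotated between them.

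Of the rest of the pentraxin family, 5 genes had probe sets. Nptx1, a neuronal pentraxin, stood at 0.44 with DCAC and 0.56 with DCAA against corn oil, and Nptx2 at -0.41 and 0.59, none of them passing (limma adjusted p of 0.967, 0.372, 0.987 and 0.643 in that order). Ptx3, the long pentraxin made by myeloid and stromal cells, Ptx4 and Mptx1 did not pass the filter, with group means of 26.2 to 84.1, and Mptx2 and Nptxr have no annotated probe set.

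Lrg1, which encodes the leucine-rich alpha-2-glycoprotein that neutrophils and hepatocytes secrete, had the largest difference of the members. It read 28100, 30536 and 34679 with DCAC, 28533, 35164 and 35553 with DCAA, and 17771 and 11881 on control 1 and 3. All 6 treated livers exceeded both controls, and the controls themselves differed more than the livers within either treated group did on the log scale, with an SD of 0.41 against 0.15 with DCAC and 0.18 with DCAA. The difference from corn oil was 1.09 (SE 0.19) with DCAC, or 2.13-fold, and 1.18 (SE 0.19) with DCAA, or 2.27-fold. Without control 3 these were 0.80 and 0.89, and without control 1 they were 1.38 and 1.47.

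Itih3 and Itih4 encode heavy chains of the inter-alpha-trypsin inhibitor family, of which those that join bikunin carry hyaluronan in the matrix, and they lie side by side on chromosome 14. Itih4 read 41667, 51288 and 55953 with DCAC, 50619, 56040 and 58206 with DCAA, and 33591 and 31264 with corn oil. Itih3 read 30267, 34538 and 38801 with DCAC, 33854, 36612 and 35176 with DCAA, and 27628 and 24027 with corn oil. For both genes every treated liver lay above both controls, and DCAC 1 was the lowest treated liver. The difference of Itih4 was 0.60 (SE 0.16) with DCAC and 0.76 (SE 0.16) with DCAA, and that of Itih3 was 0.42 (SE 0.15) and 0.45 (SE 0.15).

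The other 4 genes of the inhibitor family stood closer to corn oil. Itih1, the neighbour of Itih3 on the other side, stood at 0.21 with DCAC and 0.19 with DCAA, Itih2 at 0.17 and 0.36, Itih5 at 0.26 and 0.31, and Ambp, whose product is cut into bikunin and alpha-1-microglobulin, at 0.24 and 0.32. No gene of the family passed in either comparison, with limma adjusted p from 0.375 to 0.981 for these 4.

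Fgl1, a fibrinogen-like protein secreted by hepatocytes that binds the T cell receptor LAG-3, read 25844, 34050 and 26259 with DCAC, 27354, 33411 and 33516 with DCAA, and 18662 and 14735 with corn oil. Treated livers did not overlap the controls, and the difference from corn oil was 0.78 (SE 0.17) with DCAC and 0.92 (SE 0.17) with DCAA, or 1.72-fold and 1.89-fold. The 3 fibrinogen chain genes, whose products form the clot, were smaller in difference. Fga stood at 0.14 with DCAC and 0.27 with DCAA, Fgb at 0.21 and 0.35 and Fgg at 0.15 and 0.25, none passing (limma adjusted p of 0.374 to 0.981), and Fgl2 did not pass the filter.

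Serpina3n, a secreted serine protease inhibitor related to human alpha-1-antichymotrypsin, read 20987, 21306 and 20555 with DCAC, 16948, 26545 and 21170 with DCAA, and 10773 and 13147 with corn oil. The DCAC livers were nearly alike, with an SD of 0.03 on the log2 scale, while the DCAA livers ranged more widely, with an SD of 0.32. The difference from corn oil was 0.82 (SE 0.18) with DCAC and 0.83 (SE 0.18) with DCAA, or 1.76-fold and 1.78-fold. Serpina3n lies in a cluster of related genes on chromosome 12 next to Serpina3m, so its probe set could also take up transcripts of its neighbours. Of 11 genes in the Serpina3 family, 3 had a probe set. Besides Serpina3n, Serpina3i stood at 0.25 with DCAC and 0.42 with DCAA (limma adjusted p = 0.991 and 0.808), and Serpina3a did not pass the filter.

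Steap4, which reduces iron and copper ions and is raised by inflammatory cytokines in liver and fat, did not go with the others. Its brighter probe set read 2449, 3560 and 3578 with DCAC, 3593, 2378 and 1681 with DCAA, and 3996 and 2610 with corn oil, and the 3 groups overlapped. The dimmer probe set read 602, 528 and 423 with DCAC, 585, 177 and 48.4 with DCAA, and 509 and 472 with corn oil. On both probe sets DCAA 2 and DCAA 3 were the lowest livers, and on the dimmer one DCAA 3 lay under the floor of 67.3 set for that array. The brighter probe set stood at -0.04 (SE 0.29) with DCAC and -0.41 (SE 0.29) with DCAA against corn oil, and the dimmer one at 0.06 (SE 0.63) and -1.36 (SE 0.63). The DCAA values rested on single arrays: the brighter probe set stood at -0.69 without DCAA 1, -0.14 without DCAA 3, -0.10 without control 1 and -0.72 without control 3, and the dimmer one at -2.17 without DCAA 1 and -0.61 without DCAA 3. With DCAC the brighter probe set turned to 0.14 without DCAC 1 and 0.27 without control 1, and was -0.34 without control 3. DCAC 3, which had the highest 3'/5' ratio for pyruvate carboxylase, read 3578 and 423. DCAA 3, the lowest liver on both probe sets, had the highest ratios for actin and GAPDH, at 2.59 and 1.37. The part of the ratio in the DCAA values was not tested. Its promoter held all 3 motifs searched, while its signal was not higher in the treated livers. The label of a moderate acute phase gene is thus not borne out for Steap4 by these values.

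The other STEAP genes, metalloreductases of the same family, passed in no comparison. Steap1 stood at -0.44 with DCAC and 0.61 with DCAA (SE 0.57 each), and Steap2 at 0.08 and -0.11 (SE 0.27 each). Steap3, the reductase of the transferrin cycle, stood at 0.28 and -0.81 (SE 0.48 each). Signals were low, from 46.6 to 278 for Steap1 and from 96.2 to 494 for Steap3. Steap1 on DCAC 2 lay under that array's floor of 52.7.

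**Figure D2:**
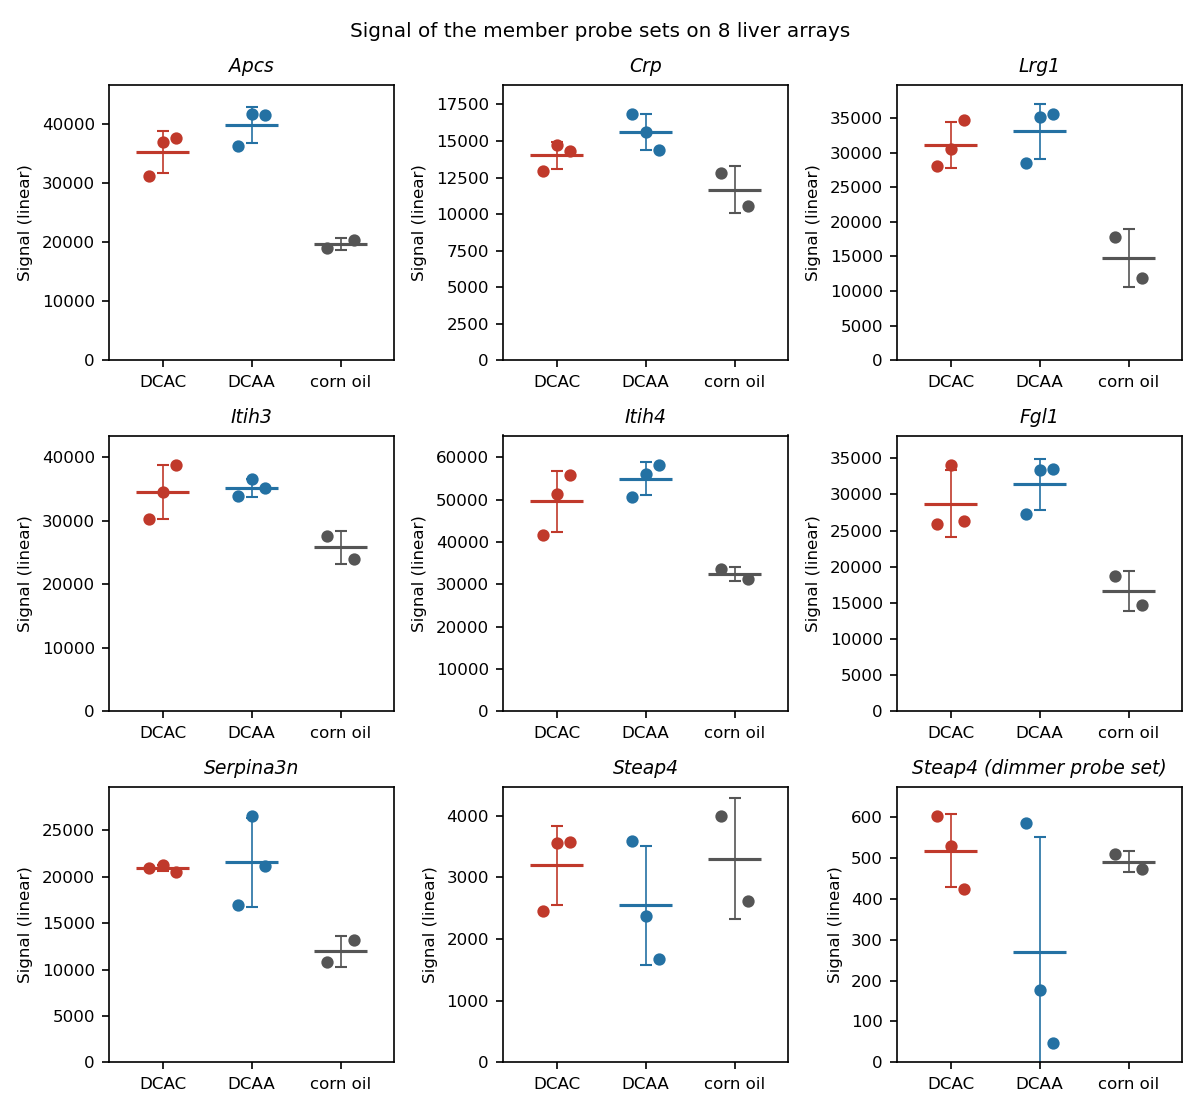
Linear signal of each member probe set on the 8 arrays, with DCAC, DCAA and corn oil (control 1 and 3) from left to right; points are mice, lines are means and bars are 1 SD, cut off at 0 for the dimmer Steap4 probe set. For 7 genes all treated livers lie above both controls, whereas the Steap4 groups overlap.

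With the brightest probe set of each gene, all 3 DCAC livers lay above both controls for 7 of 8 genes, where 11.2% of all probe sets did. For DCAA the count was also 7 of 8, where 16.2% of all probe sets did, and 0 of 8 lay below both controls, where 15.6% did. Crossing the limma threshold (adjusted p under 0.05 over all probe sets) upward were 0 of 8 genes with DCAC, where 0.0326% of all probe sets did, and 2 of 8, Apcs and Lrg1, with DCAA, where 0.0693% did and 0.0122% crossed it downward. The members were chosen on these differences, so the counts describe them and carry no further weight. The median difference of the 8 genes was 0.69 with DCAC (range -0.04 to 1.09) and 0.80 with DCAA (range -0.41 to 1.18), beside -0.03 and -0.01 over all probe sets tested. Both comparisons use the same 2 controls. Control 3 was below control 1 for 6 of 8 genes, where it was for 51.2% of all probe sets and 44.2% of those with a mean signal over 10000.

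Leaving out an array changed the count of 2 for DCAA and left that for DCAC at 0. It became 4 without DCAA 1, with Serpina3n and Fgl1 added, and 1 without DCAC 1 or DCAC 2. It became 0 without DCAA 2, DCAA 3, control 1 or control 3. When high or low 3'/5' ratio entered the model as a block it was 0, and the median difference of the 8 genes was 0.65 with DCAC and 0.67 with DCAA. In that model the DCAA difference was 0.19 for Itih3, against 0.45 without the block, 0.48 for Itih4, against 0.76, and 0.86 for Apcs, against 1.01. It was 0.94 for Lrg1, against 1.18, 0.37 for Crp, against 0.42, and -0.69 for Steap4, against -0.41. Fgl1 and Serpina3n went the other way, at 1.09 against 0.92 and 0.87 against 0.83. The block rested on DCAC 3 against DCAC 1 and 2, since all DCAA arrays were high and both controls low.

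Transcripts with strong signals were higher on the treated arrays in general. Of the 703 probe sets with a mean signal over 10000, a group set apart after the data were seen, 85.2% stood above corn oil with DCAC and 75.7% with DCAA, and their median difference was 0.17 and 0.19. Of the 8 member genes, 7 belong to it. With quantile normalization, which makes the spread of signals alike on all arrays, the median of those probe sets was -0.01 with either compound. The 8 member genes then had a median of 0.52 with DCAC and 0.54 with DCAA. After that normalization Itih3 stood at 0.16 with DCAC and 0.13 with DCAA, Itih4 at 0.42 and 0.40, and Apcs at 0.68 and 0.74.

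**Figure D3:**
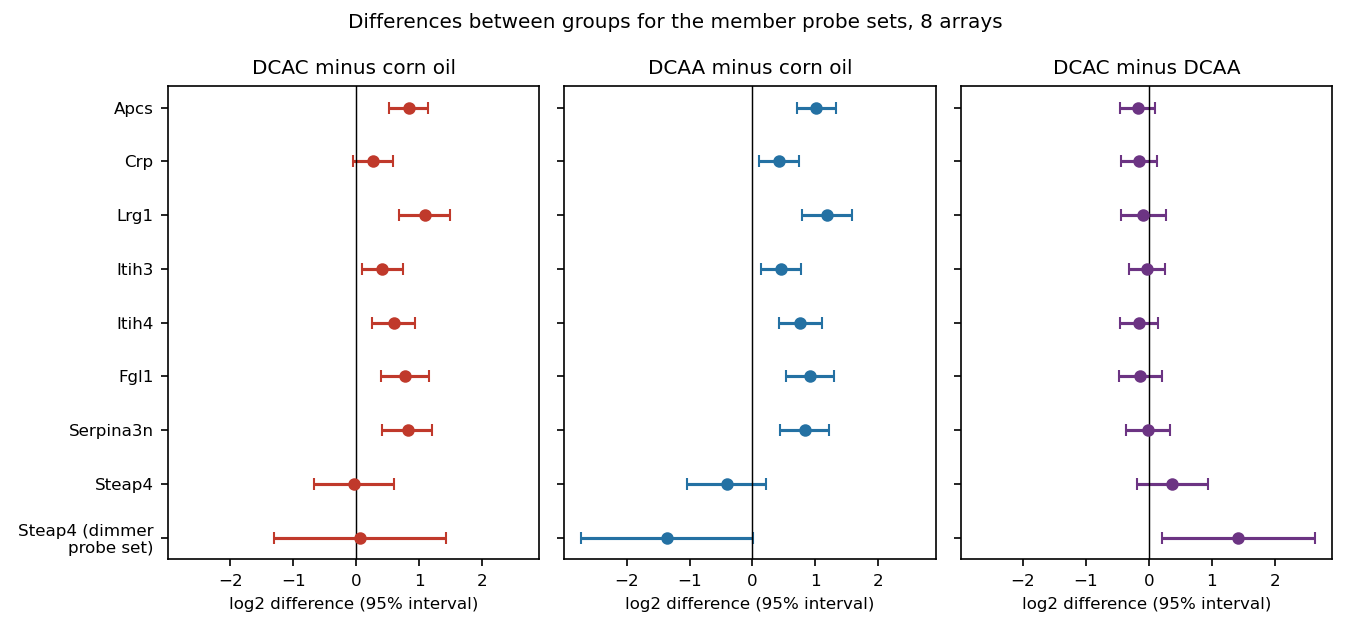
Difference in log2 signal with its 95% interval for each member probe set, for DCAC minus corn oil, DCAA minus corn oil and DCAC minus DCAA, on 8 arrays. Taking the brightest probe set of each of the 8 genes, the interval lies above 0 for 6 with DCAC, where that of Crp includes 0, and for 7 with DCAA. Between the compounds it excludes 0 for none. Of all 24531 probe sets, 1232 with DCAC, 3086 with DCAA and 2277 between the compounds had an interval that excludes 0, in either direction (unadjusted limma p under 0.05). The members were chosen with the differences from corn oil known.

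DCAC and DCAA were given at the same molar dose and times, and they differ in the group that leaves with the dichloroacetyl unit, chloride in DCAC and dichloroacetate in DCAA. Their direct comparison was not used to draw up the list, though it shares the treated arrays. No difference passed for any of the 8 genes (limma adjusted p of 0.645 to 0.981), where 0.00408% of all probe sets did. At the brightest probe sets 0 of 8 had an unadjusted limma p under 0.05, where 2277 of all 24531 probe sets did. The DCAC arrays lay all above the DCAA arrays for 0 of 8 genes and all below for 0 of 8, where 6.32% and 7.63% of all probe sets did. The difference was -0.18 for Apcs (interval -0.46 to 0.10), -0.15 for Crp (-0.44 to 0.13), -0.09 for Lrg1 (-0.45 to 0.27) and -0.16 for Itih4 (-0.46 to 0.15). For Fgl1 it was -0.14 (-0.47 to 0.20), for Itih3 -0.03 (-0.32 to 0.25) and for Serpina3n -0.02 (-0.37 to 0.33).

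These 7 genes thus stood slightly lower with DCAC than with DCAA, and with arrays set to a common median all 7 turned slightly higher, by 0.01 to 0.17. That scaling put the median of all probe sets at 0.17 for this comparison and at -0.12 for DCAA minus corn oil, beside -0.01 in both without it. Over these 7 genes the intervals reach down to 0.721 times and up to 1.26 times the DCAA level, so equal effects are not shown. Steap4 stood higher with DCAC, by 0.37 (interval -0.19 to 0.94) on the brighter probe set and by 1.42 (0.20 to 2.64) on the dimmer, the dimmer one with an unadjusted p of 0.026 and a limma adjusted p of 0.495. Without DCAA 3 these differences were 0.11 and 0.67, and without DCAA 1 they were 0.66 and 2.23.

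Livers of 1 group differed from each other. DCAC 1 was the lowest DCAC liver for 7 of 8 genes, all but Serpina3n, where it was for 31.9% of all probe sets and 49.6% of the 703 bright ones. DCAA 1 was the lowest DCAA liver for 6 of 8, all but Crp and Steap4, where it was for 36.9% and 22.8%. The summed hepatocyte markers were also lowest on DCAC 1 among the DCAC arrays, but highest on DCAA 1 among the DCAA arrays. For pyruvate carboxylase, DCAC 1 had the lowest 3'/5' ratio of the DCAC arrays, at 2.85, and DCAA 1 the lowest of the DCAA arrays, at 6.43. For actin and GAPDH the lowest DCAA array was instead DCAA 2, at 1.76 and 1.02. The part of the ratio in this was not tested. Averaged over the 8 genes, each centred on its own mean, log2 signal was -0.04, 0.21 and 0.22 on the DCAC arrays, 0.14, 0.26 and 0.14 on the DCAA arrays, and -0.36 and -0.57 on control 1 and 3. Itih4 and Itih3 followed this average most closely, with a root mean square difference of 0.091 and 0.093, and Lrg1 and Steap4 least, with 0.258 and 0.512.

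Outside the list, 6 genes with 1 symbol followed that average most closely over the 8 arrays. They were Tfr2, a transferrin receptor of hepatocytes that takes part in iron sensing, with a root mean square difference of 0.082, Fgd6 and Gaa with 0.09 each, Ehmt1 with 0.102, Serpina10 with 0.111 and Dio1 with 0.112. Gaa encodes the lysosomal alpha-glucosidase, Serpina10 the inhibitor of coagulation factor Xa that circulates with protein Z, and Dio1 the deiodinase that activates thyroid hormone. Serpina10 stood at 0.73 with DCAC and 0.70 with DCAA against corn oil, Dio1 at 0.64 and 0.70, and Tfr2 at 0.44 and 0.56. Whole-liver patterns over so few arrays are shared by many genes, and likeness is given here only as a measure.

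The strongly induced acute phase genes stood well above the members. Of 24 other positive acute phase genes, 22 were tested, with a median difference of 0.38 with DCAC and 0.60 with DCAA, and 6 passed upward with either compound and none downward. The list was drawn up with results of these arrays known. Saa2 and Saa1, the serum amyloid A genes, stood higher by 4.59 and 4.08 with DCAC and by 3.98 and 3.70 with DCAA (limma adjusted p of 0.0149, 0.00308, 0.0227 and 0.00586 in that order). Lcn2, Orm2, Mt2 and Mt1 were the other 4, with differences of 1.44 to 3.72 with DCAC and 1.58 to 3.50 with DCAA. These calls rested on the settings: leaving out 1 array gave 0 to 7 with DCAC and 0 to 9 with DCAA, both 0 without control 1. Without control 3 they were 2 and 1, with DCAC 3 without DCAC 2 and 1 without DCAC 3, and with DCAA 3 without DCAA 2, 1 without DCAA 3 and 9 without DCAA 1. They were 1 and 0 with the ratio block, 0 and 2 with robust eBayes, and 0 with no filter or without the intensity trend. Hp, which encodes haptoglobin, the scavenger of free haemoglobin, stood among the members in size, at 0.73 with DCAC and 0.90 with DCAA, without passing (limma adjusted p = 0.450 and 0.0938).

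Genes that the liver lowers in a typical acute phase response did not stand below corn oil. All 8 of the negative acute phase genes tested had a positive difference with both compounds, with a median of 0.22 (range 0.17 to 0.32) with DCAC and 0.42 (range 0.34 to 0.48) with DCAA, and none passed. Of the 703 bright probe sets, 85.2% were positive with DCAC and 75.7% with DCAA, with a median of 0.17 and 0.19. Among the negative acute phase genes, named after their values were seen, Alb, albumin, stood at 0.24 and 0.48 and Ttr, transthyretin, at 0.18 and 0.44. Of 15 hepatocyte markers, some of them shared with that list, 13 were positive with either compound, with a median of 0.18 and 0.35, and their summed signal was 462047 to 599569 with DCAC, 584204 to 624333 with DCAA and 456403 and 483143 on control 1 and 3. Crp, Itih3, Fga and Fgg lay within or near the range of these abundant hepatocyte transcripts, and Apcs, Lrg1, Fgl1, Serpina3n and Itih4 above it. Fgb is itself among the hepatocyte markers, so its place within the range was fixed in advance. No test of the members against them was made.

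**Figure D4:**
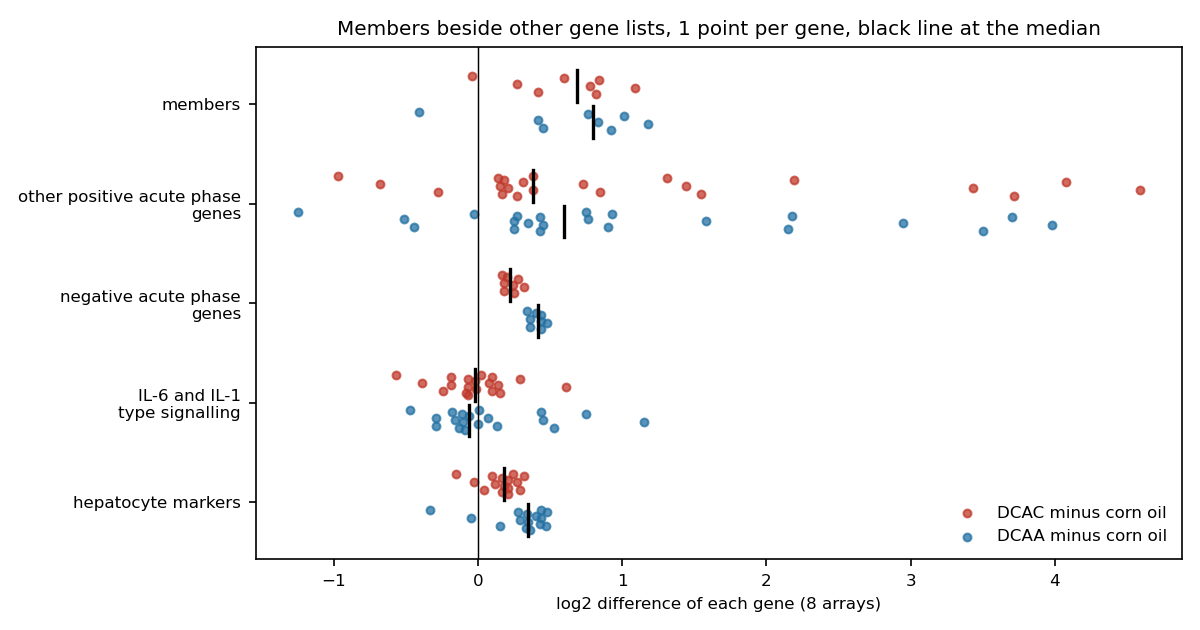
Difference in log2 signal of each gene from corn oil with DCAC (upper row of each list) and DCAA (lower row), with a black line at each list's median, on 8 arrays. The strongest acute phase genes reach 4.59, and the hepatocyte markers and negative acute phase genes stay at 0.48 or less. Of the members Crp, Itih3 and Steap4 stand at 0.45 or less with both compounds and the other 5 higher, and the signalling genes centre near 0.

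Among signalling genes upstream of the response no transcript passed. Of 21 genes of interleukin 6 and interleukin 1 type signalling, 19 were tested, none passing with either compound, with a median of -0.02 with DCAC and -0.06 with DCAA. Il6ra and Il6st, the chains of the interleukin 6 receptor, stood at -0.07 and 0.15 with DCAC and at 0.45 and 0.53 with DCAA. Stat3, which carries the signal to the nucleus, stood at -0.01 with DCAC and 0.44 with DCAA, and Socs3, its feedback inhibitor, at -0.39 and -0.16. Named after their values were seen, Il1r1, the interleukin 1 receptor, and Nfkbia, the inhibitor of NF-kappaB, had the largest DCAA values of the list. Il1r1 stood at 0.14 with DCAC and 1.15 with DCAA (limma adjusted p = 0.992 and 0.396). Nfkbia stood at 0.10 with DCAC and 0.75 (interval 0.27 to 1.24) with DCAA, and between the compounds at -0.65 (interval -1.09 to -0.21, limma adjusted p = 0.451). Cebpb and Cebpd, C/EBP factors of the response, stood at -0.19 each with DCAC and at 0.07 and -0.13 with DCAA (SE 0.17 and 0.41 with either compound). Control 1 and 3 lay far apart for Cebpd, at 204 and 598, and for Socs3, at 1738 and 907 (SE 0.31), so an absence of change is not shown for them. These values describe a single time, 24 h past the final injection.

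Other cell types did not show a marker list in which any gene passed. The summed signal of 12 neutrophil markers was 3285 to 3659 with DCAC, 2468 to 5066 with DCAA and 2447 and 2266 on control 1 and 3. Every treated liver was thus above both controls, DCAA 1 only slightly. The margin of DCAA 1 rested on Prtn3, which read 590 on it and 222 and 45 on control 1 and 3. Of the 10 tested, 7 were positive and 3 negative with either compound, with a median of 0.77 with DCAC and 0.75 with DCAA. Prtn3 was highest at 2.77 and 2.68, without passing (limma adjusted p = 0.0648 and 0.0521), and Csf3r lowest at -0.74 and -0.89. The Prtn3 value on control 3 lay under that array's floor of 54.3. Neutrophils also express Lrg1. The summed signal of 13 Kupffer cell and macrophage markers was 12391 to 19223 with DCAC, 16257 to 17928 with DCAA, and 11751 and 39180 on control 1 and 3, the controls being the extremes. T and NK cell markers summed to 1482 to 1661 with DCAC, 1474 to 1796 with DCAA and 2214 and 3198 on control 1 and 3, every treated liver being below both controls, and the 5 tested had a median difference of -1.16 and -0.72. Adipocyte markers, relevant to Steap4, summed to 544 to 1182 with DCAC, 1193 to 1687 with DCAA and 881 and 958 with corn oil over 5 genes. The part of these cells in the member values was not tested.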

How the data were processed

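Liver RNA of 9 mice was measured on Affymetrix arrays, 1 array per mouse, after reverse transcription from oligo-dT and in vitro transcription, per the labels' protocols. The authors deposited 1 linear signal intensity for each probe set, from GCOS per the submitters' processing notes, which give no version. Every array averaged 500.0 once its brightest and dimmest 2% of values were trimmed, so they had been scaled alike before deposit. No detection calls were used here.

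Groups follow the labels. The members and gene lists were chosen with earlier results of these data known, as was the decision to show control 2 apart. The 64 control probe sets were left out of the tests. Each array's 25th percentile served as a floor before log2, and a probe set was kept (24531 were) if it exceeded its array's median on 3 or more of the 8. A single limma model (version 3.58.1, R 4.3.3, lmFit and eBayes with an intensity trend) held all 8 arrays, with two-sided Benjamini-Hochberg adjusted p over all kept. The script was tested on simulated data. A gene is given by its brightest kept probe set. Named are all members, family lists, pathway genes that passed or were preset, and the 6 genes closest to the members' mean. Of 45037 probe sets, 34945 carry 1 symbol. The median 95% interval reached 1.56-fold either way against corn oil; arrays have no read depth, and the number of mice limits the precision. P-values measure the spread between these mice only.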

Additional observations from a re-analysis of the deposited data

How the results depend on the processing

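The median difference of the 8 measured member genes was 0.52 to 0.76 with DCAC and 0.54 to 0.80 with DCAA across the settings that keep 8 arrays. The value of 0.54 came from quantile normalization. Leaving out each array in turn gave 0.58 to 0.77 and 0.71 to 0.91. With all 9 arrays, control 2 included, the medians were 3.12 and 3.26, and 0 of 8 genes were called with either compound. No setting called a member with DCAC or between the compounds. The count of 2 called with DCAA was 0 with a common median, no filter, eBayes without trend or a block for high and low 3'/5' ratio, 1 with quantile normalization or only the groups compared, and 0 to 4 when leaving out each array. With the replicate block it was 0. Same-numbered arrays deviated together at correlations of -0.0408 to 0.0275, which gave no ground for treating equal numbers as pairs. Over all probe sets the calls ran from 2 to 14 with DCAC and from 3 to 87 with DCAA when leaving out each array, after 8 and 20; they became 0 without the intensity trend or with control 2, 1 with DCAC under robust eBayes, 1 and 4 with no filter, 12 and 9 with a common median, and 2 and 0 with the ratio block.

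Between the compounds, small differences turned positive in some settings, none passing. With quantile normalization Serpina3n, Itih4 and Itih3 stood at 0.03, 0.02 and 0.03. With a common median, Lrg1 stood at 0.10, Apcs at 0.01, Serpina3n at 0.17, Crp at 0.03, Fgl1 at 0.05, Itih4 at 0.03 and Itih3 at 0.15. With the ratio class as a block, Lrg1, Itih4 and Itih3 stood at 0.08, 0.03 and 0.14. Leaving out each array gave -0.12 to 0.06 for Itih3 and -0.18 to 0.15 for Serpina3n. Scaling to a common median shifts all probe sets of an array alike, and it moved the median of all probe sets between the compounds from -0.01 to 0.17. The cause of the other changes was not tested. The filter set on every array drops the dimmer Steap4 probe set, as does keeping 1 probe set per gene, since each uses fewer probe sets.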
